A study of Mus musculus with 9 samples.

Results

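The 10 genes described here are mouse genes known to be imprinted and to act on growth or differentiation. They are Igf2, H19, Igf2r, Plagl1, Dlk1, Meg3, Peg3, Mest, Grb10 and Ndn. They were taken as the rows of the deposited gene table whose symbol equals a listed name, and 10 of the 21210 genes of the table met that rule. Of the table's genes, 15828 had a normalised read count of at least 10 in at least 3 libraries and were tested, among them all 10.

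RNA was sequenced from the lateral cortex of embryonic day 14.5 mice of strain C57BL/6, with poly-A selection and strand-specific libraries. Cells were sorted into 3 populations of 3 biological replicates each: proliferating progenitors (labelled Btg2 negative), differentiating progenitors (Btg2 positive) and neurons (Tubb3 positive). All embryos carried both reporters, one driven by Btg2, a gene switched on when a progenitor commits to neurogenic division, and one by Tubb3, a neuronal tubulin gene. The genotype label names GFP for both reporters, whereas the sample titles name RFP for the Btg2 gate and GFP for neurons. Each library pooled sorted cells of more than 3 embryos from different litters, after the meninges and ganglionic eminences had been removed, so values describe pools and not single animals. The counts are given per gene, with no separation of the parental alleles.

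Imprinted genes are transcribed mainly from the allele of a single parent, because DNA methylation set in the egg or sperm distinguishes the parental copies. Many of them act on fetal growth: Igf2 is a growth factor expressed from the paternal allele, while the maternally expressed Igf2r and Grb10 restrain insulin-like growth factor signalling. Imprinted genes lie in clusters in which a noncoding RNA such as H19 or Meg3 is often expressed from the allele opposite to its protein-coding neighbour. Grb10 is known to be transcribed from the maternal allele in most tissues and from the paternal allele in neurons.

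The libraries summed to between 17531558 and 22076409 normalised counts, and the spacing of their low values corresponds to about 12649019 to 27584473 counted reads. Summed markers followed the labels. Those of radial glia ranged from 107682 to 125023 in proliferating progenitors, from 49524 to 72002 in differentiating progenitors and from 6228 to 7580 in neurons. Those of intermediate progenitors were highest in differentiating progenitors (57539 to 73685), and those of neurons were highest in neurons (175698 to 211062). Proliferating progenitors also held haemoglobin and other red blood cell transcripts, at 1.48%, 0.57% and 0.671% of the total in replicates 1 to 3, against at most 0.0114% in any library of the other groups.

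MicroRNA hairpins and a shared promoter region are shown because the measurements bear on them. H19 and Meg3 each carry a microRNA hairpin for which the table has a row of its own, so reads over that part of the host RNA are also listed separately. The mature sequences, from RefSeq on GRCm38.p6, are given 5′ to 3′ with the seed, bases 2 to 8, in capitals.
mmu-miR-675-5p: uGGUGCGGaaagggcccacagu
mmu-miR-675-3p: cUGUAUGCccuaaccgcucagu
mmu-miR-770-5p: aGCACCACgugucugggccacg
mmu-miR-770-3p: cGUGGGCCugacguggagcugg
The 4 seeds differ from each other. The miR-675 hairpin lies at chr7:142577064-142577147 on the minus strand, within an exon of 3 of the 4 annotated H19 transcripts that span it. The miR-770 hairpin lies at chr12:109563692-109563785 on the plus strand, within an exon of 1 of the 4 Meg3 transcripts that span it. In the hairpins that follow the mature arms are in capitals.
Mir675: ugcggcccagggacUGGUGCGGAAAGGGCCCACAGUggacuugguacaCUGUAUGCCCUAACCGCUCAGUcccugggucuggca
Mir770: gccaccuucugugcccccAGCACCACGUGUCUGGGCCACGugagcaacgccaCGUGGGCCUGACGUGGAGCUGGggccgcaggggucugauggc

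Peg3 and its neighbour Usp29 start on opposite strands a short distance apart. The 163 bases between their RefSeq starts, at chr7:6730420-6730582 (GRCm38.p6, plus strand), hold 5 CpG dinucleotides, written in capitals, and are 62% G or C.
Peg3-Usp29 interval: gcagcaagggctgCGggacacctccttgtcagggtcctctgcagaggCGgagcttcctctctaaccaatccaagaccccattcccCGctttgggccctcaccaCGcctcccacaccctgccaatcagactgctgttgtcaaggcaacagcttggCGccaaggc
Readouts of both genes on either side of it are given with Peg3.

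Across the 3 populations, the genes fell into different patterns. Plagl1, H19 and Grb10 fell at both steps, Igf2 and Mest fell between the progenitor populations, Meg3 rose at both steps, and Ndn rose at the step to neurons. The first-step falls of H19 and Grb10 held in only 5 and 2 of 9 fits that left out a library. Dlk1 was lower in neurons than in proliferating progenitors, and Peg3 and Igf2r passed the test in no comparison on the deposited scaling without pairing of the libraries. Here and throughout, changes are log2 differences of normalised counts plus 1 from limma, a linear model with moderated variances, with Benjamini-Hochberg adjustment over all tested genes. A gene is said to rise or fall where the adjusted p was under 0.05.

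From proliferating to differentiating progenitors, 6 of the 10 genes passed, 1 higher and 5 lower, where 24.9% of all tested genes passed (13.8% higher and 11.1% lower). From differentiating progenitors to neurons, 5 passed, 2 higher and 3 lower, against 54.0% of all genes (27.6% and 26.4%). Between neurons and proliferating progenitors 8 passed, 2 higher and 6 lower, against 63.3% (32.2% and 31.1%). The median log2 change of the 10 genes in these comparisons was -0.77, -0.50 and -2.16, and that of all tested genes was -0.02, -0.01 and -0.02. The libraries of the compared populations did not overlap for 8, 7 and 8 of the 10 genes, against 37.7%, 60.7% and 67.6% of all genes. The 3 comparisons share libraries and are not independent of each other.

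Libraries with the same replicate number deviated together from their group means, so a fit with the number as a block was also made. In that fit 8, 8 and 9 of the 10 genes passed in the same order of comparisons, against 46.0%, 71.3% and 78.2% of all genes. In replicates 2 and 3 alone 8 passed from differentiating progenitors to neurons, against 60.4%. Where the block changes a call of the 10 genes, its p is printed beside the value without it. Scaling each library to its total, in place of the authors' scaling, moved the median of all genes to -0.09, -0.22 and -0.30. In neurons against differentiating progenitors it brought Igf2r (-0.52, limma adjusted p = 0.00329) and Mest (-0.50, adjusted p = 0.00274) past the threshold, both lower.

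**Figure D1:**
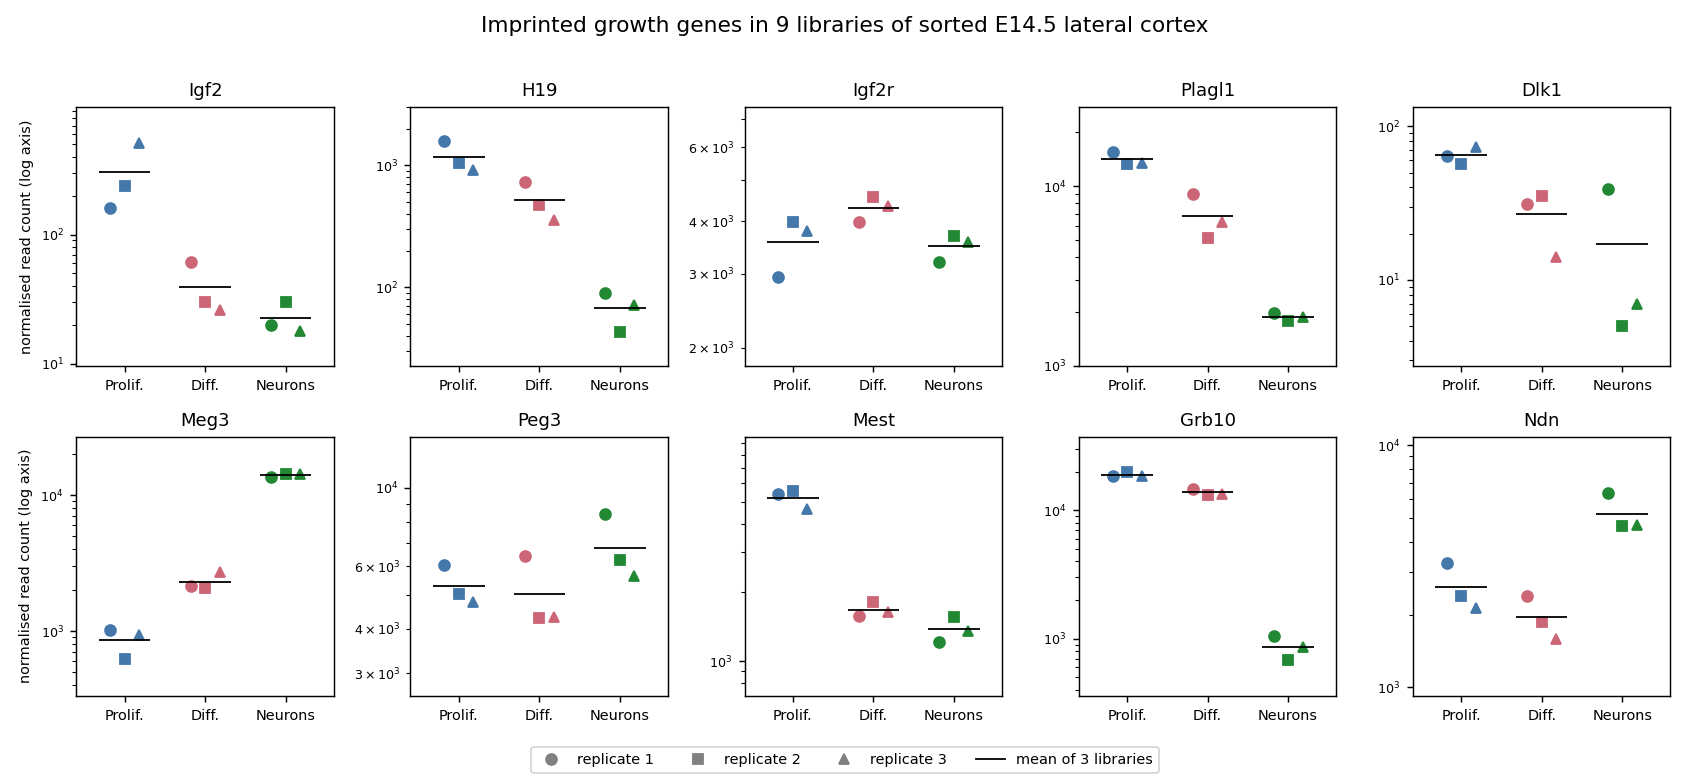
Normalised read count (log axis, scaled separately in each panel) of the 10 genes in each library of proliferating progenitors (blue), differentiating progenitors (red) and neurons (green), with the replicate number as marker shape and the mean of 3 libraries as a line. Grb10 was at least 13267 in all progenitor libraries and was at most 1046 in neurons, while Meg3 rose from at most 1025 to at least 13617.

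**Figure D2:**
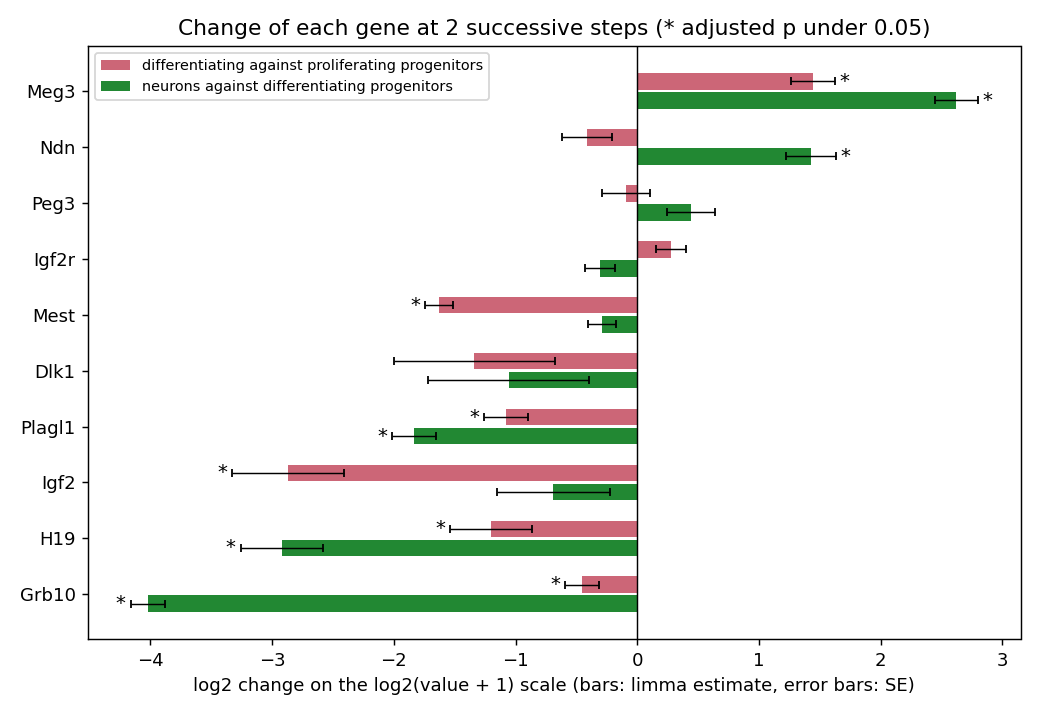
Log2 change of each gene from proliferating to differentiating progenitors (red) and from differentiating progenitors to neurons (green), as limma estimates with standard errors, and an asterisk where the adjusted p was under 0.05. Mest changed by -1.63 at the first step and -0.29 at the second, and Grb10 by -0.45 and -4.02.

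The ligand of the set was highest in proliferating progenitors. Igf2, a secreted growth factor, lies at chr7:142650766-142666816 (GRCm38, minus strand). Its normalised read counts were 162, 239 and 515 in proliferating progenitors, 61, 30 and 26 in differentiating progenitors, then 20, 30 and 18 in neurons. All libraries of proliferating progenitors were above all others, and the libraries of differentiating progenitors and neurons overlapped. The means were 305 ± 186, 39.0 ± 19.2 and 22.7 ± 6.4 (SD, n = 3), so the mean in differentiating progenitors was 7.83-fold lower than in proliferating progenitors. The log2 change was -2.87 ± 0.46 (SE, limma adjusted p = 0.00206) at this step, and -0.69 ± 0.46 (limma adjusted p = 0.243) from there to neurons. In the authors' deposited table the first of these had an adjusted p of 0.057. Per kilobase of gene model, Igf2 stood at 55.6, 7.10 and 4.13 in the 3 populations, against 2067 for Grb10 in proliferating progenitors.

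The summed markers of meninges and fibroblasts, and those of mural cells, were highest in proliferating progenitors, as Igf2 was. The summed counts of 10 markers of meninges and fibroblasts were 400, 844 and 3150 in the 3 libraries of proliferating progenitors, in which Igf2 read 162, 239 and 515. They were 155 to 257 in differentiating progenitors and 70 to 136 in neurons, where 4 of the 10 were at 0 in all libraries. Col1a1, a fibroblast collagen, read 62, 190 and 639 in the libraries of proliferating progenitors. Col3a1, another collagen, made up 1516 of the 3150 in replicate 3. Not every marker followed the sum. Dcn had a higher mean in differentiating (62.3) than in proliferating progenitors (31.0). Crabp2 read 173, 77 and 147 in proliferating progenitors, highest in replicate 1. The 9 mural markers summed to 663, 1029 and 1383 in proliferating progenitors, 201 to 266 in differentiating progenitors and 59 to 69 in neurons. Among them, Tagln had means of 9.7, 9.7 and 13.7 in the 3 populations. The 12 endothelial markers summed to 293, 406 and 766 in proliferating progenitors, to 264 and 268 in replicates 1 and 2 of the differentiating progenitors, and to 79 to 140 in neurons. Replicate 3 of the differentiating progenitors lay above replicate 1 of the proliferating ones in that sum, so the progenitor populations overlapped. Kdr, an endothelial growth factor receptor on that list, had a higher mean in differentiating (133) than in proliferating progenitors (108). Over the 9 libraries, the tested gene whose log2 values were most like those of Igf2 was Vtn, a mural cell marker of that list (Pearson r = 0.993). The part of these cells in the Igf2 counts was not tested, and in bulk RNA fewer cells of a type and less RNA per cell cannot be told apart.

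**Figure D3:**
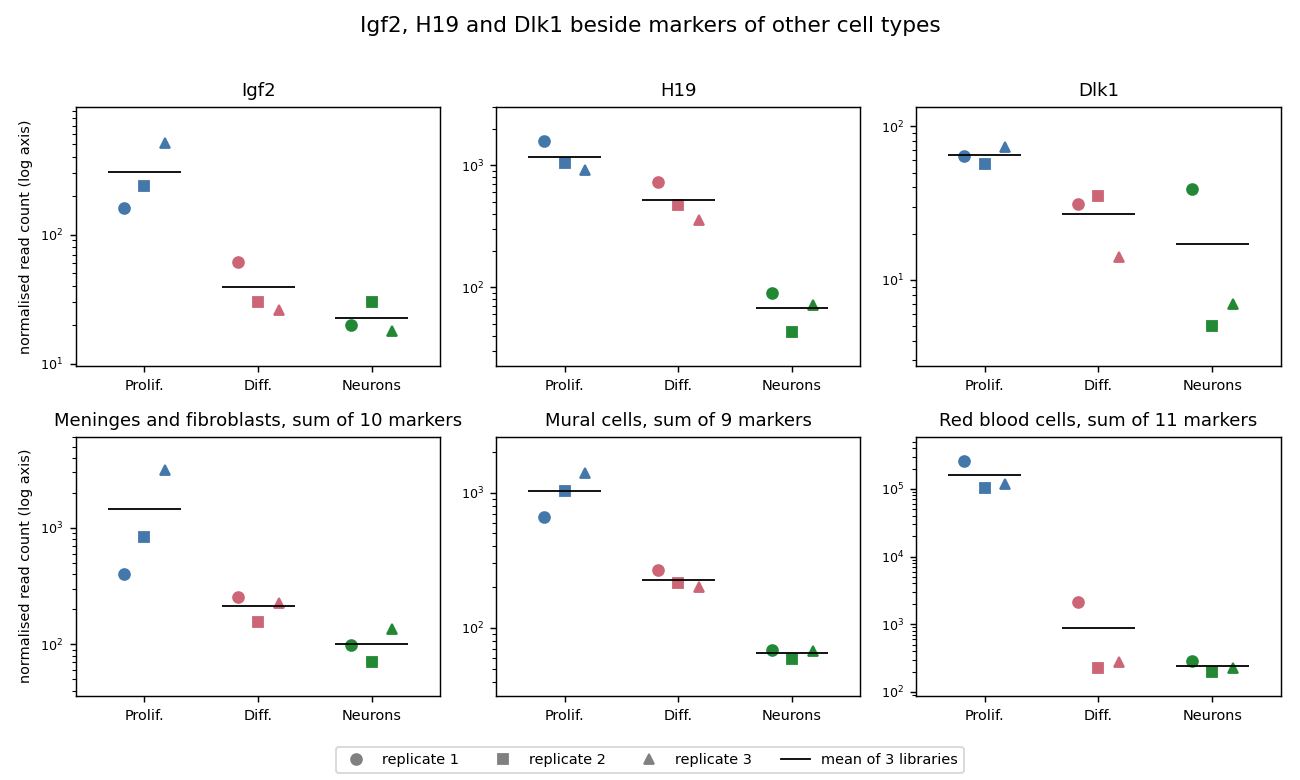
Normalised read count (log axis) of Igf2, H19 and Dlk1 in the upper row, and the summed counts of markers of meninges and fibroblasts, mural cells and red blood cells in the lower row, by population and library, with the mean of 3 libraries as a line. Replicate 3 of the proliferating progenitors is highest for Igf2 (515), for meningeal markers (3150) and for mural markers (1383), and replicate 1 is highest for H19 (1570) and for red blood cell markers (259146).

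H19 fell at both steps and, per kilobase, stood above its neighbour Igf2 in all populations. It is a long noncoding RNA at chr7:142575529-142578143, 72.6 kb from Igf2 on the same strand, and is expressed from the opposite allele. It read 1570, 1038 and 919 in proliferating progenitors, 731 and 474 in replicates 1 and 2 of the differentiating progenitors, then 89, 43 and 71 in neurons. In replicate 3 the differentiating progenitors had 0.3852 times the count of the proliferating ones. No libraries of different populations overlapped, and within both progenitor populations replicate 1 was highest and replicate 3 lowest. Group means were 1176 ± 347, 519.7 ± 193 and 67.7 ± 23.2 (SD, n = 3), a fall of 2.26-fold and then of 7.68-fold. At the first step the log2 change was -1.20 ± 0.34 (limma adjusted p = 0.0309). This call held in 5 of 9 fits that left out a library. It was lost without replicate 1 or 2 of the proliferating progenitors or replicate 2 or 3 of the differentiating ones, with adjusted p up to 0.111, and the authors' deposited table gave an adjusted p of 0.1. At the second step the change was -2.92 ± 0.34 (limma adjusted p = 7.33e-05). Between proliferating progenitors and neurons H19 fell by 4.12 on the log2 scale, or 17.4-fold. Red blood cell markers summed to 259146, 103759 and 118057 in the libraries of proliferating progenitors, highest in replicate 1 as H19 was, and to at most 2101 in any other library. The 6 choroid plexus markers summed to 1471, 434 and 820 in proliferating progenitors, 1566, 406 and 414 in differentiating progenitors, and 39 to 43 in neurons. Their sum too was highest in replicate 1 of both progenitor populations and lowest in neurons, but it overlapped between the progenitor populations, where H19 did not. Ttr made up 1140 of the 1471 and 1134 of the 1566 in replicate 1. Otx2, also on that list, had a higher mean in differentiating (169) than in proliferating progenitors (60.7). It was highest in replicate 3 of the differentiating progenitors (195). The part of either cell type in the H19 counts was not tested.

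The row of the miR-675 hairpin followed H19. It read 55, 34 and 26 in proliferating progenitors, 34, 15 and 15 in differentiating progenitors, then 1, 2 and 4 in neurons. Per kilobase, the hairpin stood at 456, 254 and 27.8 and H19 at 496, 219 and 28.5. The hairpin row spans only 84 bases, and how reads across its edges were counted is not given. The same reads may be counted in both rows, so the hairpin is not an independent readout. Its fall from differentiating progenitors to neurons passed the test (log2 change -2.74 ± 0.48, limma adjusted p = 0.000986), and its change between the progenitor populations did not (-0.85, adjusted p = 0.246). In poly-A libraries these reads come from the host transcript over the hairpin, printed with the sequences, and not from the mature microRNA.

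Igf2 and H19 share their end of chromosome 7 with Cdkn1c, an inhibitor of cyclin-dependent kinases, 792 kb from Igf2. Cdkn1c read 180, 147 and 127 in proliferating progenitors, 1791, 1689 and 1730 in differentiating progenitors, then 2057, 1528 and 1856 in neurons. It rose between the progenitor populations (log2 change 3.53 ± 0.15, limma adjusted p = 5.61e-06), the step at which Igf2 and H19 fell. Its change from there to neurons was 0.05 (adjusted p = 0.803).

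Igf2r, the receptor that takes up Igf2 and delivers it to lysosomes, had its highest counts in differentiating progenitors, by margins that did not pass the test with all libraries on the deposited scaling without pairing. It lies at chr17:12682406-12769664 on the minus strand. The counts were 2951, 3981 and 3790 in proliferating progenitors, 3991, 4574 and 4351 in differentiating progenitors, then 3200, 3696 and 3566 in neurons. The differentiating progenitors were above both other groups in all libraries, while proliferating progenitors and neurons overlapped. The log2 change was 0.28 ± 0.12 (limma adjusted p = 0.138) at the first step and -0.30 ± 0.12 (adjusted p = 0.0615) at the second. With the replicate block both passed, with limma adjusted p = 0.00325 and 0.000902. Within each replicate number the count in differentiating progenitors was 1.148 to 1.352 times that in proliferating progenitors, and neurons had 0.8018 to 0.8196 times the count of differentiating progenitors. Neurons against proliferating progenitors gave -0.03 (adjusted p = 0.875). With total-sum scaling that value was -0.31 (limma adjusted p = 0.0324) and the second step was -0.52 (adjusted p = 0.00329), both past the threshold. For neurons against proliferating progenitors, leaving out replicate 2 or 3 of the proliferating progenitors or replicate 1 of the neurons turned the sign.

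Airn, the antisense noncoding RNA that overlaps Igf2r on the opposite strand, was low, at 32.0 ± 8.7, 22.0 ± 3.6 and 42.3 ± 4.7 (SD, n = 3). It rose from differentiating progenitors to neurons (log2 change 0.92 ± 0.27, limma adjusted p = 0.0168), a call that total-sum scaling ended (0.71, adjusted p = 0.0569) and that held in 6 of 9 fits without a library. The sources used here do not say whether reads were counted by strand, so Igf2r and Airn cannot be told apart where they overlap. Slc22a3, also of this cluster, read at most 3 in any library.

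Grb10 and Plagl1 were the most abundant of the 10 genes per kilobase in proliferating progenitors, and both fell in neurons. Grb10, an adaptor that binds and restrains the insulin and insulin-like growth factor receptors, lies at chr11:11930508-12038683 on the minus strand. It read 18508, 19866 and 18464 in proliferating progenitors, 14803, 13267 and 13446 in differentiating progenitors, then 1046, 678 and 867 in neurons. No libraries of different populations overlapped. From differentiating progenitors to neurons the mean fell 16.0-fold, from 13839 ± 839.9 to 864 ± 184 (SD, n = 3). This was the largest change of the 10 genes at either step (log2 change -4.02 ± 0.14, limma adjusted p = 8.42e-08). The first step was small (-0.45 ± 0.14, limma adjusted p = 0.0448). That call held in 2 of 9 fits without a library, those that left out replicate 1 or 2 of the neurons, and the limma adjusted p reached 0.134 in the others. It was also lost without the filter on low values (adjusted p = 0.0524) and without the intensity trend (adjusted p = 0.0738). The authors' deposited table gave it an adjusted p of 0.057.

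The steps were also compared with each other, as the change at the second minus that at the first. Of the 10 genes 4 differed, 3 higher and 1 lower, against 31.4% of all genes (15.2% and 16.2%). With the replicate block 9 differed, 5 higher and 4 lower, against 51.5% (24.5% and 27.0%). The 5 gained calls were those of Igf2, H19, Igf2r, Peg3 and Plagl1. For Igf2 the difference was 2.18 ± 0.80 (limma adjusted p = 0.0688, with the block 0.0414), and for H19 it was -1.72 ± 0.59 (limma adjusted p = 0.0538, with the block 0.00122). For Igf2r it was -0.58 ± 0.21 (limma adjusted p = 0.066, with the block 0.000853), and for Peg3 0.53 ± 0.34 (limma adjusted p = 0.29, with the block 0.00249). With total-sum scaling H19 (limma adjusted p = 0.0431) and Igf2r (0.0188) also passed. For Grb10, the 1 that was lower without the block, the difference was -3.57 ± 0.24 (limma adjusted p = 1.6e-05). The neighbours Ddc and Cobl, 32.4 and 198 kb away, were low. Ddc read at most 13 in any library and was not tested. Cobl fell from 59.3 ± 20.0 in proliferating progenitors to 16.3 ± 3.1 (SD, n = 3) in neurons (log2 change -1.77 ± 0.41, limma adjusted p = 0.00428).

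Plagl1, a zinc finger transcription factor known to restrain proliferation and to regulate other imprinted genes, lies at chr10:13060504-13131694 on the plus strand. The counts were 15444, 13272 and 13478 in proliferating progenitors, 9066, 5165 and 6273 in differentiating progenitors, then 1958, 1766 and 1869 in neurons. The populations did not overlap, and replicate 1 was highest in each of them. The means of 14065 ± 1199, 6835 ± 2010.2 and 1864 ± 96 (SD, n = 3) gave falls of 2.06-fold and 3.67-fold. The log2 changes were -1.08 ± 0.18 (limma adjusted p = 0.00241) and -1.83 ± 0.18 (adjusted p = 2.28e-05). The difference between them, -0.76 ± 0.31, did not pass (adjusted p = 0.0991) and passed with the replicate block (limma adjusted p = 0.00715).

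Mest fell between the progenitor populations. It encodes a hydrolase-like protein expressed from the paternal allele, known from mesodermal tissues and lies at chr6:30723547-30748465 on the plus strand. It read 5386, 5577 and 4618 in proliferating progenitors, 1571, 1818 and 1638 in differentiating progenitors, then 1215, 1552 and 1357 in neurons. The 3 populations did not overlap. The mean fell 3.10-fold at the first step (5194 ± 508 to 1676 ± 128, SD, n = 3), a log2 change of -1.63 ± 0.12 (limma adjusted p = 3.43e-05). The second step was -0.29 ± 0.12 (adjusted p = 0.0603), which passed with the replicate block (limma adjusted p = 0.00445) and with total-sum scaling (adjusted p = 0.00274). The difference between the steps was 1.34 ± 0.20 (limma adjusted p = 0.000913). Copg2, which overlaps Mest on the opposite strand, read 1982 ± 219, 1724 ± 399 and 2054 ± 480.1 (SD, n = 3) and passed in no comparison without the block. With it, limma adjusted p was 0.0456 at the first step and 0.0177 at the second.

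On chromosome 12, Dlk1 was low and its noncoding neighbour Meg3 rose towards neurons. Dlk1, a membrane and secreted protein related to the Notch ligands and expressed from the paternal allele, lies at chr12:109452823-109463336 on the plus strand. It read 64, 57 and 73 in proliferating progenitors, 31, 35 and 14 in differentiating progenitors, then 39, 5 and 7 in neurons. Proliferating progenitors were above all other libraries, and replicate 1 of the neurons lay above every differentiating progenitor library. Means were 64.7 ± 8.0, 26.7 ± 11.2 and 17 ± 19.1 (SD, n = 3). Neurons against proliferating progenitors passed, with a log2 change of -2.39 ± 0.66 (limma adjusted p = 0.0107), or 3.80-fold lower. The first step was -1.34 ± 0.66 (adjusted p = 0.188) and the second -1.06 ± 0.66 (adjusted p = 0.213).

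At each step the Dlk1 result depended on that neuronal library, whereas neurons against proliferating progenitors passed in 9 of 9 fits without a library. Without replicate 1 of the neurons the first step passed (-1.34, limma adjusted p = 0.0296), the second was -1.90 (adjusted p = 0.0046), and neurons against proliferating progenitors became -3.24 (adjusted p = 0.000163). Neurons enter the first step only through the spread shared by the 3 populations, so the estimate there was unchanged. In the authors' deposited table the first step had an adjusted p of 0.042. Meningeal markers summed to 98 in that neuronal library, against 70 and 136 in replicates 2 and 3. Counts this low limit the precision.

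Meg3, a long noncoding RNA expressed from the maternal allele, lies at chr12:109541001-109571726 on the plus strand, 77.7 kb from Dlk1. Its counts were 1025, 625 and 936 in proliferating progenitors, 2145, 2086 and 2709 in differentiating progenitors, then 13617, 14410 and 14399 in neurons. The populations were far apart relative to the spread among libraries, with means of 862 ± 210.0, 2313 ± 344 and 14142 ± 455 (SD, n = 3). Meg3 rose 2.68-fold and then 6.11-fold. The log2 changes were 1.44 ± 0.18 (limma adjusted p = 0.000478) and 2.62 ± 0.18 (adjusted p = 2.22e-06), and the second exceeded the first by 1.18 ± 0.31 (adjusted p = 0.0179). That difference passed in 7 of 9 fits without a library, and not without replicate 1 or 2 of the differentiating progenitors.

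Reads over the miR-770 hairpin were highest in neurons, as Meg3 was, at 1, 0 and 1, then 1, 2 and 3, then 28, 36 and 27. The hairpin met the filter on low values only through its neuronal libraries. Its log2 change from differentiating progenitors to neurons, 3.43 ± 0.43, is therefore given without a test. Per kilobase it stood at 323 in neurons against 782 for Meg3, whereas the miR-675 hairpin in neurons stood at 27.8 against 28.5 for H19. The miR-770 row spans 94 bases, so the limits given for the miR-675 row hold here too. Begain, a synaptic protein gene 385 kb from Dlk1, rose at the same step, from 176 ± 35 to 716 ± 30.0 (SD, n = 3; log2 change 2.04 ± 0.19, limma adjusted p = 1.46e-05). Dio3, a thyroid hormone deiodinase gene 707 kb from Meg3, read 15, 26 and 35 in proliferating progenitors, 6, 42 and 53 in differentiating progenitors, then 13, 10 and 14 in neurons, and passed in no comparison of all libraries. Its second step was -0.94 (limma adjusted p = 0.299) and became -1.87 (adjusted p = 0.00373) without replicate 1 of the differentiating progenitors. Without that library neurons against proliferating progenitors also passed (-0.92, limma adjusted p = 0.0438). Rtl1, 17.5 kb from Meg3, read at most 6 and was not tested.

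Peg3 passed in no comparison of all libraries without pairing. It encodes a zinc finger protein expressed from the paternal allele, known for roles in apoptosis and maternal behaviour, and lies at chr7:6703892-6730431 on the minus strand. The counts were 6051, 5027 and 4776 in proliferating progenitors, 6436, 4284 and 4325 in differentiating progenitors, then 8428, 6245 and 5649 in neurons. Replicate 1 was highest in every population, and each pair of populations overlapped. From differentiating progenitors to neurons the log2 change was 0.44 ± 0.20 (limma adjusted p = 0.0892), and with the replicate block it passed (adjusted p = 0.000139). Within each replicate number neurons had 1.306 to 1.458 times the count of differentiating progenitors. Neurons against proliferating progenitors gave 0.34 ± 0.20 (adjusted p = 0.157, with the block 0.000613), and the progenitor populations differed by -0.09 ± 0.20 (adjusted p = 0.812). With total-sum scaling the changes to neurons shrank to 0.22 from differentiating progenitors (limma adjusted p = 0.383) and 0.06 from proliferating progenitors (adjusted p = 0.824).

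Usp29, which starts across the interval printed with the sequences, rose at both steps. This gene of a ubiquitin-specific protease read 24, 20 and 16 in proliferating progenitors, 66, 60 and 58 in differentiating progenitors, then 881, 674 and 642 in neurons. The log2 change was 1.59 ± 0.20 (limma adjusted p = 0.000516) at the first step and 3.54 ± 0.20 (adjusted p = 6.98e-07) at the second. Zim1, 7.44 kb from Peg3, rose from 16.7 ± 2.3 in differentiating progenitors to 112 ± 9.0 (SD, n = 3) in neurons (log2 change 2.68 ± 0.24, limma adjusted p = 1.36e-05). Per kilobase, Peg3 stood above both, at 509 in neurons against 281 for Usp29 and 30.7 for Zim1.

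Ndn was the most abundant of the 10 genes per kilobase in neurons, at 3159. It encodes necdin, a protein of the MAGE family that is known to restrain the cell cycle in neurons, and lies at chr7:62346569-62350262 on the plus strand. It read 3269, 2392 and 2137 in proliferating progenitors, 2395, 1863 and 1583 in differentiating progenitors, then 6333, 4643 and 4682 in neurons. Neurons were above all progenitor libraries, and the progenitor populations overlapped. The mean rose 2.68-fold from differentiating progenitors to neurons, from 1947 ± 412 to 5219 ± 965 (SD, n = 3; log2 change 1.43 ± 0.21, limma adjusted p = 0.00029). At the first step the change was -0.41 ± 0.21 (adjusted p = 0.188). With the replicate block it passed (limma adjusted p = 0.000266), and within replicate numbers the ratio was 0.7326, 0.7788 and 0.7408. The steps differed by 1.84 ± 0.36 (limma adjusted p = 0.00376).

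The neighbours of Ndn went in different directions. Magel2, another MAGE family gene 26.7 kb away, rose from 95.0 ± 19.7 in differentiating progenitors to 769 ± 208 (SD, n = 3) in neurons (log2 change 2.99 ± 0.25, limma adjusted p = 8.17e-06). Mkrn3, a ubiquitin ligase gene 67.3 kb away, had means of 307 ± 15, 335.7 ± 18 and 313 ± 33 (SD, n = 3) and passed in no comparison, except with total-sum scaling in neurons against differentiating progenitors (-0.32, limma adjusted p = 0.0493). Peg12, 112 kb away, fell from 1159, 656 and 670 in differentiating progenitors to 76, 42 and 39 in neurons (-3.97 ± 0.29, limma adjusted p = 3.8e-06). Snrpn, an RNA-processing gene of the same imprinted domain, rose at that step by 1.62 ± 0.22 (adjusted p = 0.000232). Ube3a, a ubiquitin ligase gene, was higher in neurons than in proliferating progenitors by 0.50 ± 0.11 (adjusted p = 0.00383), which did not pass with total-sum scaling (0.21, limma adjusted p = 0.0949).

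The same markers of other cells bear on the remaining genes. The summed means of meningeal, mural, endothelial and red blood cell markers were highest in proliferating progenitors, the population in which Plagl1, Mest and Grb10 were also highest. Within that population Mest was lowest in replicate 3 (4618), where the meningeal and mural sums were highest. The summed counts of 8 markers of interneurons and the ventral lineage were highest in neurons, as Meg3 and Ndn were. They were 87 to 985 in proliferating progenitors, 444 to 2903 in differentiating progenitors and 7350 to 8556 in neurons. The mean of this sum was higher in differentiating than in proliferating progenitors (1586 against 440), as that of Meg3 was. The mean of Ndn was lower there (1947 against 2599). Gad1, Lhx6 and Sst read at most 25 in any progenitor library and at least 413 in neurons. Nkx2-1 read at most 6 in any library. The part of these cells in the results was not tested.

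**Figure D4:**
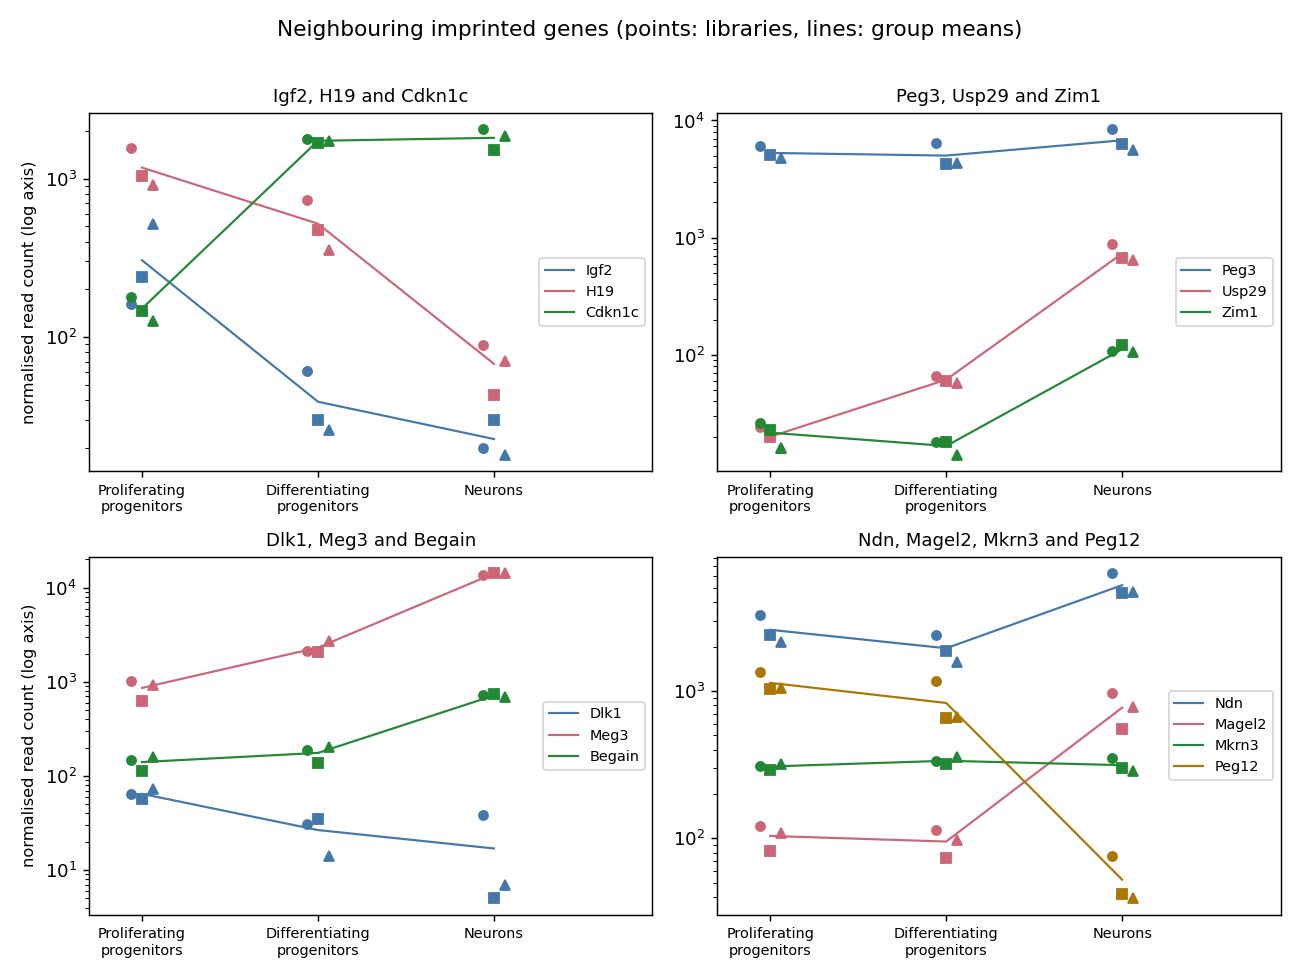
Normalised read count (log axis) of neighbouring imprinted genes on chromosomes 7 and 12 in the 3 populations, with points for libraries (circle, square and triangle for replicates 1, 2 and 3) and lines through the group means. Cdkn1c rose between the progenitor populations, where Igf2 and H19 fell, and did not pass at the step to neurons, where H19 fell further. Usp29 rose at both steps beside Peg3, and Magel2 rose while Peg12 fell in the cluster of Ndn.

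Beyond these clusters, a list of 50 other imprinted genes was examined, of which 43 were in the table and 36 tested. At the first step 3 were higher and 7 lower, with a median log2 change of -0.15, and 27.8% passed, near the 24.9% of all genes. With the replicate block 8 of the 36 were higher and 14 lower, where 46.0% of all genes passed. In fits without a library and with no block, the first-step count of this list ran from 5 to 13. That of all 15828 tested genes ran from 2661 to 4063. The count of the list was 5 without replicate 3 and 6 without replicate 2 of the differentiating progenitors, and 6 without replicate 3 of the proliferating progenitors. At the second step 14 were higher and 9 lower, median 0.24, and 63.9% passed against 54.0% of all genes. With the block 18 were higher and 11 lower there, where 71.3% of all genes passed. In neurons against proliferating progenitors 15 were higher and 12 lower, median 0.03, and 75.0% passed against 63.3%. With total-sum scaling these became 13 and 12, and 12 and 14, where the medians of all genes were -0.22 and -0.30. The share of all genes passing under that scaling is not given, so these counts are not read further. Among those with the smallest p were Nnat, a small membrane protein gene of neuronal differentiation, with means of 7352, 13711 and 41033, and Inpp5f, a phosphoinositide phosphatase gene, with 1617, 1647 and 6108. Nnat rose at both steps (0.90 ± 0.11, limma adjusted p = 0.000413, and 1.58 ± 0.11, adjusted p = 2.34e-06) and Inpp5f at the second (1.89 ± 0.08, adjusted p = 1.3e-07). Peg10, a retrotransposon-derived gene listed in the table as AC084315.1, fell at the first step from 3146 ± 686 to 1101 ± 408 (SD, n = 3; -1.55 ± 0.26, limma adjusted p = 0.00236). Dcn, a proteoglycan gene of the extracellular matrix that is also on the list of meningeal and fibroblast markers, was among the smallest p for the difference between the steps (-5.23 ± 0.64, limma adjusted p = 0.000289). It read 17, 27 and 49 in proliferating progenitors, 59, 66 and 62 in differentiating progenitors, then 2, 3 and 3 in neurons. Its first step was 1.11 ± 0.37 (limma adjusted p = 0.0587, with the block 0.016), and it fell at the second (-4.12 ± 0.37, adjusted p = 1.36e-05).

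Igf2, Igf2r and Grb10 belong to the insulin-like growth factor pathway, whose other genes were examined as a list of 32, with 31 in the table and 24 tested. At the first step 7 were higher and 4 lower, with a median log2 change of 0.07, and 45.8% passed against 24.9% of all genes. With the replicate block 10 were higher and 6 lower there, where 46.0% of all genes passed. At the second step 10 were higher and 6 lower, median 0.18, and 66.7% passed against 54.0%. In neurons against proliferating progenitors 12 were higher and 9 lower, median 0.14, and 87.5% passed against 63.3%. With total-sum scaling the splits were 6 and 5, 6 and 8, and 11 and 12, where the medians of all genes were -0.09, -0.22 and -0.30. These splits too have no share of all genes beside them. The ligand Igf1 read at most 16 in any library and was not tested. The signalling receptors were present throughout: Igf1r had means of 2263, 2719 and 3651 and Insr of 2946, 3443 and 4722 in the 3 populations. Both were named for their role and not for their values.

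The genes with the smallest p in this list include carriers of the ligand and proteases that free it. Igfbp5, a binding protein, fell from 8728, 6890 and 6422 in proliferating progenitors to 3190, 1592 and 1855 and then to 151, 187 and 99 in neurons (log2 changes -1.79 ± 0.29, limma adjusted p = 0.00229, and -3.90 ± 0.29, adjusted p = 4.11e-06). Igfbp3, another binding protein, did the opposite at the second step, from 37, 23 and 23 to 557, 796 and 653 (4.57 ± 0.25, adjusted p = 5.93e-07). Igfbpl1, a gene related to the binding proteins, rose between the progenitor populations from 1683 ± 388 to 14083 ± 2347 (SD, n = 3; 3.08 ± 0.18, limma adjusted p = 1.52e-05). Pappa2, a protease of binding proteins, rose at both steps, with means of 45.3, 324 and 944 (2.82 ± 0.13, limma adjusted p = 7.4e-06, and 1.54 ± 0.13, adjusted p = 8.13e-06). Pappa, the related protease, went the other way at the second step and was named after its values were seen. It read 200, 202 and 179 in proliferating progenitors, 230, 180 and 154 in differentiating progenitors, then 7, 6 and 1 in neurons. The log2 change was -0.06 ± 0.47 (limma adjusted p = 0.96) at the first step and -5.27 ± 0.47 (adjusted p = 1.27e-05) at the second. Pik3r1, a subunit of phosphoinositide 3-kinase, had means of 740.3, 2083 and 2736. It rose by 1.49 ± 0.14 (log2, SE, limma adjusted p = 0.000121) at the first step and by 0.40 ± 0.14 (limma adjusted p = 0.0365) at the second. The second step did not pass with total-sum scaling (limma adjusted p = 0.264) and passed in 4 of 9 fits without a library.

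**Figure D5:**
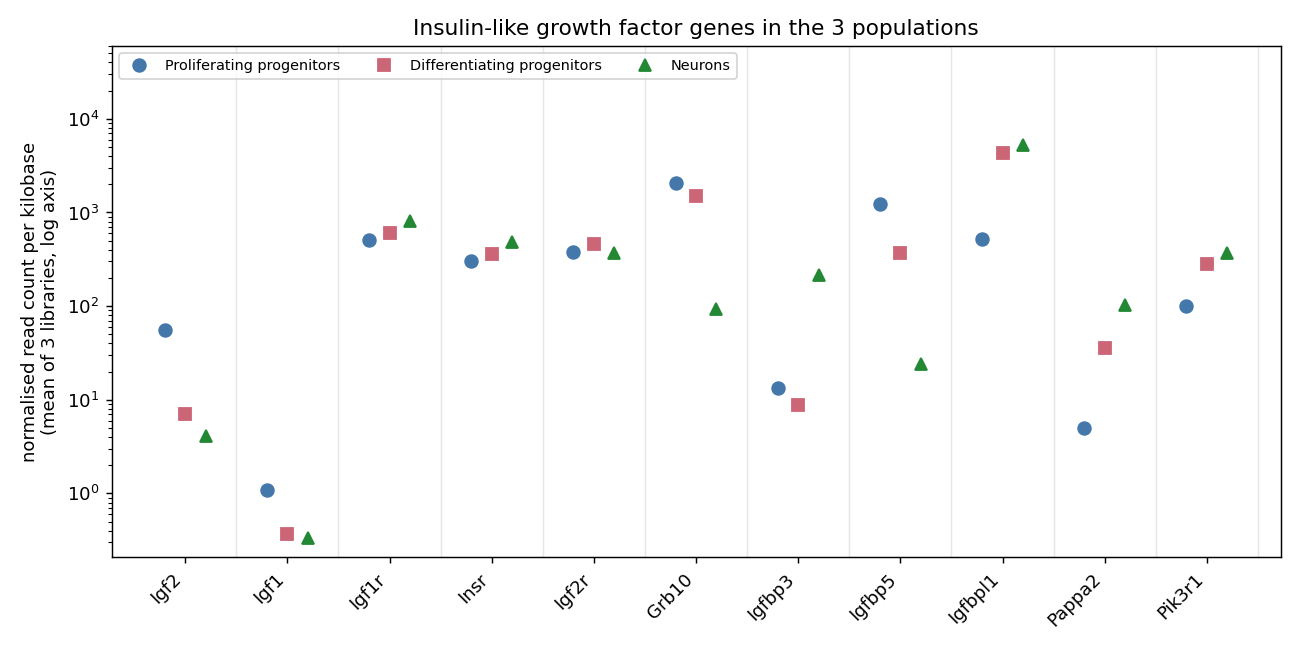
Mean normalised read count per kilobase of gene model (log axis, mean of 3 libraries) of insulin-like growth factor genes in proliferating progenitors, differentiating progenitors and neurons. Igf2 went from 55.6 to 4.13 and Grb10 from 2067 to 94.2 between the first and last population, while Igf1r and Insr were present in all 3.

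Per kilobase, the order of the 10 genes changed between the populations. In proliferating progenitors it ran from Grb10 (2067), Plagl1 (1930), Ndn (1573) and Mest (1319) through H19 (496), Peg3 (397) and Igf2r (379) to Igf2 (55.6), Meg3 (47.7) and Dlk1 (12.9). In neurons Ndn (3159) and Meg3 (782) led, followed by Peg3 (509), Igf2r (369), Mest (349), Plagl1 (256), Grb10 (94.2), H19 (28.5), Igf2 (4.13) and Dlk1 (3.38). Neighbours in these orders such as Peg3 and Igf2r in proliferating progenitors, or Igf2r and Mest in neurons, lie within the spread of their libraries.

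For each gene, the tested genes with the most similar log2 values over the 9 libraries were listed. These correlations carry no test, since the libraries fall into 3 groups and any gene with the same order of groups scores high. H19 was most like Cnbp (Pearson r = 0.995), Plagl1 like Umps (0.999), Grb10 like Slc9a3r1 and Zfp367 (0.999 each), and Mest like Jag1 (0.990), a Notch ligand. Meg3 was most like Ccl27a, Wipf3 and Sult4a1 (0.997 each), and Ndn like Mapk4 (0.990). Peg3, Igf2r and Dlk1 were most like Abhd8 (0.976), Fam116a (0.987) and Rnf144b (0.959).

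CpG dinucleotides, the sites of imprinting methylation, were counted at the start sites. In RefSeq windows of 300 bases, 250 before to 50 after the start (GRCm38.p6), 9 of the genes had 16 windows, some of them overlapping. Of these, 13 held more CpG dinucleotides than the median of 7 over 32851 windows of all genes. Grb10 had windows with 45, at the 98.4 percentile (chr11:12037371-12037670), and with 9, at the 56.5 percentile. The window of Igf2r held 34, at the 93.0 percentile. Meg3 had windows with 13 and 1, and Igf2 had windows with 2, 14, 24 and 7. No methylation was measured.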

How the data were processed

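Poly-A RNA of 9 libraries was analysed, 3 for each of 3 sorted populations, from a table with 1 column per library. Per the file headers, the authors deposited normalised read counts per gene on Ensembl version 61 models, rounded to whole numbers, which are treated here as a score and not as raw counts. The authors also deposited gene lengths, the ratio of group means and an adjusted p-value for each comparison, used only where named. The genome build was mm9 and the tools were DESeq 1.8.1, bedtools 2.11, BWA and CASAVA 1.8.0, as listed in the submitters' processing notes. Their roles, the counting strand and the treatment of reads that match several places are not given in the sources used here, so overlapping genes are uncertain. Counted reads per library were estimated from the gaps between low whole values.

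The 15828 of 21210 genes that reached 10 in 3 or more libraries were fitted on log2(value + 1) with limma 3.58.1 (R 4.3.3), 1 mean per population, an intensity trend, 6 residual degrees of freedom, and Benjamini-Hochberg adjustment over all genes tested, threshold 0.05. The pseudocount of 1 understates changes of low genes. The fit was also run on simulated data in which each library was drawn independently, so that run says nothing about libraries that deviate together. A contrast of the second step minus the first was added after values were seen. Numbers shared between groups come from the sample titles. All 9 pairs of libraries with the same number had correlated deviations (r 0.507 to 0.767, other pairs -0.64 to 0.428), so a fit with the number as a block (4 residual degrees of freedom) is given where it changes a call of the 10 genes.

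The genes and lists were chosen with earlier results of these data known. The text names the 10 genes, the 3 genes most correlated with each or the first of them, imprinted neighbours, the 4 other imprinted genes with the smallest p in each comparison, up to 6 pathway genes with the smallest p in any (a gene among them is not reported here), and Igf1, Igf1r and Insr for their role. Peg10 was matched by gene identifier. Coordinates come from GENCODE M21 (GRCm38), matched by Ensembl identifier, and sequences from RefSeq (GRCm38.p6). Alternatives were pseudocounts of 5 and 0.5, no filter, no trend, the block, total-sum scaling, the 6 libraries of a comparison alone, replicates 2 and 3 alone, and each library left out. Python 3.11.15, pandas 2.3.3 and matplotlib 3.10.9 were used for tables and figures.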

Additional observations from a re-analysis of the deposited data

How the results depend on the processing

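Of 510 recomputed log2 changes of the 10 genes, 470 kept their direction and their side of the threshold, 22 passed where the reported value had not, 13 no longer passed and 5 turned sign, all 5 of values that had not passed. The count of genes passing from differentiating progenitors to neurons was 5. It was 8 with the replicate number as a block and 8 in replicates 2 and 3 alone. With a library left out it ran from 5 to 6, and from 4 to 7 between the progenitor populations. In neurons against proliferating progenitors it was 8 in every such fit. Of the 15828 tested genes, 7604 to 8717, 2661 to 4063 and 9178 to 10216 passed in these fits, in the same order of comparisons. The sign turned for Peg3 between the progenitor populations without replicate 1 of the proliferating progenitors (0.0065) or replicate 2 of the differentiating progenitors (0.0052), within a range down to -0.29. It turned for Igf2r in neurons against proliferating progenitors without replicate 2 (0.058) or 3 (0.022) of the proliferating progenitors or replicate 1 of the neurons (0.035), within a range down to -0.16. The cause was not tested. The replicate block changed no call of the 10 genes in these comparisons beyond those of Igf2r, Ndn, Peg3 and Mest given with their values, and 5 calls on the difference between the steps, given with Grb10. Over all tested genes it moved the count passing between the progenitor populations from 3944 to 7282. For that comparison leaving out a library gave 2661 to 4063. Single omissions brought the step to neurons past the threshold for Igf2r (without replicate 1 of the proliferating progenitors, adjusted p = 0.0176), Peg3 (without replicate 1 of the differentiating progenitors, 0.0152) and Mest (without replicate 2 of the neurons, 0.0292). Pseudocounts of 5 and 0.5 changed no call. Low counts limit Dlk1, Igf2 and the hairpins most.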
